A study of Gorilla gorilla gorilla with 14 samples.

Results

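Among the distal open regions of gorilla cortical cells, 1947 were about as open in basal intermediate progenitors (bIP) as in radial glia and at least 3 times less open in neurons (N). They are 1.10% of the 176462 distal regions, which are those more than 1000 bp and at most 200000 bp from the closest gene listed in the deposited table. A region was a member when its mean level in bIP was at least 2 CPM (the count scaled to a common library total), at least 3 times its mean in N, and between 0.67 and 1.5 times its mean over the radial glia libraries. The members were thus chosen by these 3 mean levels, and the levels in radial glia, bIP and N are given as a description with no test. Accessibility was read by ATAC-seq of sorted cell pools, where a transposase places adapters in open DNA. The cells were sorted by fluorescence from cerebral organoids, cultured neural tissue grown from pluripotent cells, at week 8, and every library came from the 1 gorilla induced pluripotent stem cell line GC1. There were 3 libraries of apical radial glia (aRG), 2 of basal radial glia (bRG), 5 of bIP and 4 of N, which are labelled as BCL11B+ neurons, and the labels name no treatment or genetic change. By their library numbers the libraries fall into 2 consecutive runs, a first series (aRG 1 and 2, bIP 1 to 3, N 1 and 2) and a second series (aRG 3, bRG 1 and 2, bIP 4 and 5, N 3 and 4). Whether the libraries of a group are separate cultures is not given in the labels, so every p-value measures the spread between libraries, which may be technical.

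Radial glia are the stem cells of the developing cortex. Apical radial glia keep contact with the ventricle, basal radial glia have lost it, and both give rise to intermediate progenitors, which express the transcription factor EOMES and divide to make neurons. Distal open regions often hold enhancers, and an enhancer of a progenitor program can stay accessible through the intermediate progenitor and close when the neuron forms.

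Totals per library ran from 12836073 to 26661992 counts, so 3 counts, the floor of a library, came to between 0.113 and 0.234 CPM. No member was at the floor in the mean of N, whose lowest value was 0.271 CPM. A single N library could be, as N 4 was at the region with AC026464.4 as its closest gene, at 0.129 CPM. Promoters of radial glia and bIP markers were highest in the cells so labelled, while most neuron markers did not set N apart from bIP. The promoter of SOX2, a stem cell transcription factor, had mean levels of 10.2 CPM in N, 32.0 in bIP, 50.4 in bRG and 55.7 in aRG. The promoter of EOMES was highest in bIP, at 80.6 CPM against 29.7, 47.1 and 38.5 in aRG, bRG and N. The promoter of STMN2, a microtubule regulator of neurons, was higher in N than in bIP, at 56.3 against 37.6 CPM. The promoter of TBR1, a factor of deep-layer neurons, was lower in N (57.1 ± 10.8 CPM in bIP and 44.0 ± 1.76 CPM in N, log2 difference -0.47 ± 0.17 SE, adjusted p = 0.018), and those of MYT1L and NEUROD2 did not pass (log2 differences of -0.09 and 0.19, adjusted p = 0.68 and 0.46). The promoter of BCL11B, the gene that names the N group, did not pass either (23.2 ± 1.59 CPM in bIP and 21.2 ± 2.67 CPM in N, log2 difference -0.22 ± 0.16 SE, adjusted p = 0.28 with edgeR's quasi-likelihood test).

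The members as a set held a similar share of a library's counts in radial glia and in bIP and about 4 times less in N. They held 2.23, 2.22 and 2.09% of the counts of the 3 aRG libraries and 2.21 and 2.21% of the bRG libraries. In bIP they held 2.23, 2.21, 1.88, 2.30 and 1.99%. In N they held 0.539, 0.506, 0.611 and 0.357%. Every N library thus lay below every library of the other groups, which is what the rule asks of the means. In these unscaled shares N 3 was the highest and N 4 the lowest of the 4 neuron libraries. In unscaled CPM N 3 was also the highest N library at 1137 members and N 4 the lowest at 1431. The mean of bIP was at least 3 times the level of N 4 at 1901 members and at least 3 times that of N 3 at 1137. TMM scaling would divide N 1 to N 4 by 1.06, 1.02, 1.23 and 0.914, which lowers N 3 most and raises N 4. The order can thus depend on the scaling, and no share over all regions stands beside these counts.

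**Figure D1:**
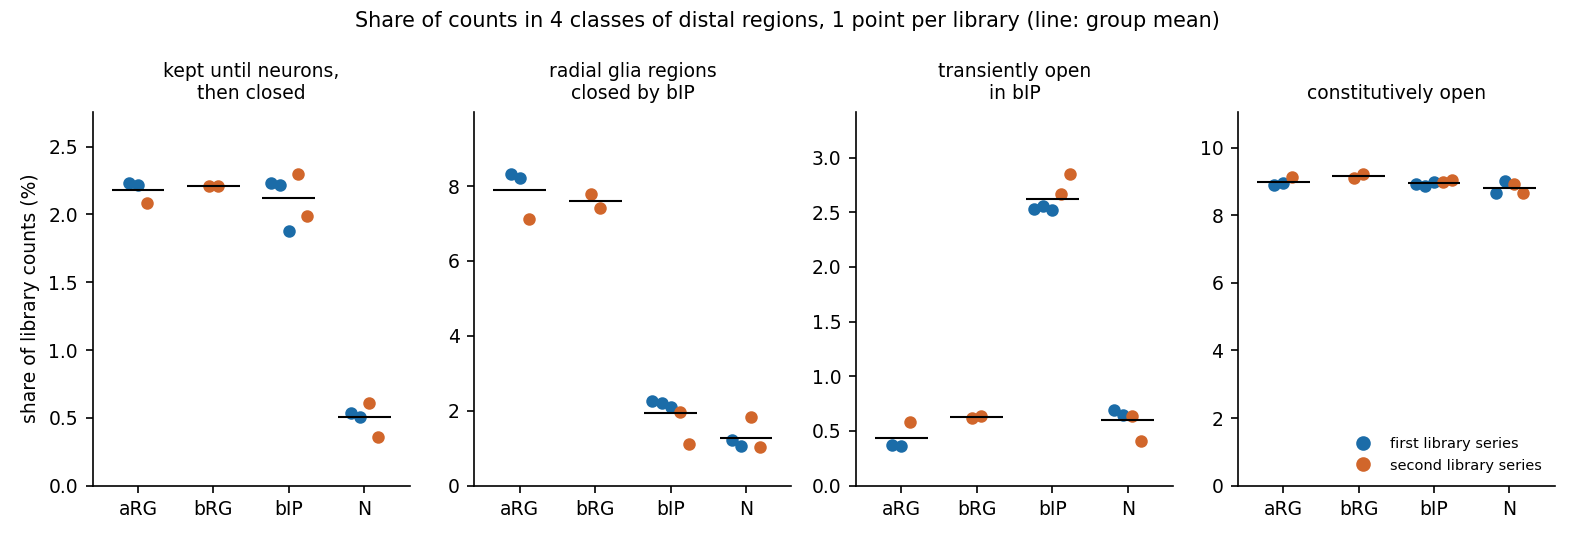
Share of each library's counts (y axis, percent) in 4 classes of distal regions, with 1 point per library, colours for the library series and a line at each group mean. The members (left) lie between 1.88 and 2.30% in every progenitor library and between 0.357 and 0.611% in N. Constitutively open regions (right) were chosen by means of at least 2 CPM within 1.5-fold of each other in radial glia, bIP and N. Their similar share in all 14 libraries follows from that choice. Regions that radial glia lose by bIP have at least 2 CPM in radial glia and 3 times their bIP mean. Regions transiently open in bIP (open mainly in bIP) have at least 2 CPM there and 3 times both other means.

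The member level itself varied little between bIP and radial glia, which the rule's window of 0.67 to 1.5 asks of their means. The median member stood at 1.76 CPM in N, against 7.86 in bIP, 8.20 in bRG and 7.35 in aRG. The bIP to N ratio had a median of 3.91, with quartiles of 3.37 and 4.92 and a maximum of 14.8. It was at least 5 at 459 members and at least 10 at 24. Inside this window, which allows a like fold change up and down, 959 members were higher and 988 lower in bIP than in radial glia. At 1819 members all 4 N libraries lay below all 10 progenitor libraries, which the choice by low means in N favours. In the fit across the whole table all 1947 members were lower in N, where 26.4% of all regions were, but the rule used this contrast and the count follows from it.

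In a bulk library, fewer cells with an open region and less opening per cell cannot be told apart. Other marker lists were also lowest in N, among them those of radial glia, mesenchyme, glia and the GABAergic lineage. The summed promoter level of 5 radial glia markers (SOX2, PAX6, VIM, HES1, NES) was 237 to 264 CPM in radial glia libraries, 113 to 164 in bIP and 76.4 to 90.0 in N. That of 4 bIP markers (EOMES, NHLH1, NEUROD4, DLL3) was 144 to 182 CPM in bIP and 79.2 to 86.5 in N, and that of 5 neuron markers overlapped between bIP (177 to 236) and N (186 to 217). The sum of 8 mesenchyme genes ran from 86.3 to 104 CPM in radial glia, 60.8 to 72.2 in bIP and 40.6 to 54.6 in N, and that of 10 oligodendrocyte and astrocyte genes from 113 to 118, 74.1 to 86.7 and 39.4 to 65.7. The sum of 14 genes of the GABAergic lineage ran from 206 to 222 CPM in radial glia, 188 to 221 in bIP and 146 to 180 in N. The sum of 9 choroid plexus and cortical hem genes ran from 53.1 to 80.5 CPM in radial glia, 48.8 to 62.1 in bIP and 48.3 to 59.5 in N. No measured gene of these lists was at 0 in any group. N 3 stood out for the SOX2 promoter, at 14.3 CPM against 8.63, 8.81 and 9.13 in the other neuron libraries. It also had the highest member share of the neuron libraries, in counts without TMM scaling. The part of cell composition in the member levels was not tested.

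The 8 most open members included 3 regions with NEUROG1, EOMES or GADD45G, all genes of intermediate progenitors, as 1 of their 2 flanking coding genes. The other flanking genes of these regions were PITX1, CMC1 and DIRAS2, in the same order. CMC1 lay nearer to its region than EOMES. The most open of all in bIP has TIFAB as its closest gene (chr5:115044527-115047744, build gorGor6 throughout), and lies 59317 bp from the promoter region of NEUROG1, a proneural transcription factor. At this region the aRG libraries gave 34.1, 34.5 and 54.3 CPM and the bRG libraries 50.8 and 54.3. The bIP libraries gave 60.5, 57.3, 47.7, 78.8 and 73.5 CPM and the N libraries 12.1, 14.4, 13.7 and 11.1. Every N library was below every progenitor library, with means of 63.6 ± 12.6 CPM (SD, n = 5) in bIP and 12.8 ± 1.48 (n = 4) in N and a fitted log2 difference of -2.42 ± 0.18 (SE). A second member, at chr5:115115388-115116526, has NEUROG1 as its closest gene and stood at 15.2 CPM in bIP and 4.83 in N, after 9.19 in aRG and 12.7 in bRG.

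A region between EOMES and CMC1 combined a high level with a large loss. It lies at chr3:28046174-28047744, with the long noncoding gene LINC01967 as its closest gene, 272701 bp from the EOMES promoter and 248906 bp from that of CMC1. In aRG the region measured 45.9, 49.5 and 39.5 CPM and in bRG 40.2 and 38.0. In bIP it measured 55.4, 55.2, 45.0, 60.9 and 57.8 CPM and in N 6.73, 6.52, 5.91 and 3.21. The ratio of bIP to N was 9.80, and even the highest neuron library lay far below the lowest progenitor library. The EOMES promoter itself was lower in N, by a smaller factor (80.6 ± 11.5 CPM in bIP and 38.5 ± 6.52 CPM in N, log2 -1.22 ± 0.15, adjusted p = 2.8e-07).

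GADD45G, a growth arrest and DNA damage response gene, had 3 members within 100 kb of its promoter, all assigned to the noncoding gene AL606807.1. The most open lies at chr9:60798065-60800010, 73621 bp from the GADD45G promoter. The radial glia libraries gave the region 44.1, 45.9 and 40.1 CPM (aRG) and 40.3 and 39.1 CPM (bRG). The 5 bIP values were 60.6, 65.0, 40.0, 57.4 and 57.8 CPM, and the 4 N values were 13.4, 14.8, 15.8 and 12.6. Its neighbours at chr9:60800676-60802013 and chr9:60821322-60822537 went from means of 35.4 and 19.25 CPM in bIP to 6.24 and 3.51 in N. The other 5 of the 8 most open members lay at LINC02694, STK17A, NAP1L1P1, FIGN and ILF2P1, with means between 51.1 and 56.5 CPM in bIP and between 4.69 and 14.5 in N. The NAP1L1P1 region lies 19384 bp from the promoter of CDON, a hedgehog co-receptor.

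Of 112 distal regions at listed genes of basal intermediate progenitors, 7 were members (6.25%, against 1.10% of all distal regions), at 5 of the 16 genes with a distal region. They were INSM1 and SMOC1 with 2 each and NEUROD4, NEUROG1 and PPP1R17 with 1 each. Assigned by the nearest promoter of a protein-coding gene instead, 14 of 359 were members (3.90%, against 1.12%). INSM1 is a zinc finger factor that promotes the formation of basal progenitors. Its more open member lies 71527 bp from the gene at chr20:20428149-20430130. Accessibility of the region was 24.4, 23.4 and 24.1 CPM in the 3 aRG libraries and 24.4 and 25.3 in the 2 bRG libraries. It was 30.2, 28.2, 23.2, 30.2 and 22.8 CPM in the 5 bIP and 7.27, 7.14, 9.46 and 7.07 in the 4 N libraries. The 4 neuron libraries did not reach any progenitor library, and N 3 was the highest of them. PPP1R17 encodes a phosphatase inhibitor expressed in intermediate progenitors. At this region the aRG libraries gave 28.6, 33.9 and 28.6 CPM and the bRG libraries 31.8 and 31.7. The bIP libraries gave 24.9, 27.3, 20.9, 28.5 and 28.5 CPM and the N libraries 4.63, 3.47, 3.49 and 2.19. This region, at chr7:32335798-32336886, lost more than the INSM1 region, with a bIP to N ratio of 7.56 against 3.48. SMOC1 encodes a secreted matrix protein, and its member at chr14:50556156-50558296 went from 28.3 ± 4.44 CPM in bIP to 5.54 ± 1.35 in N.

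**Figure D2:**
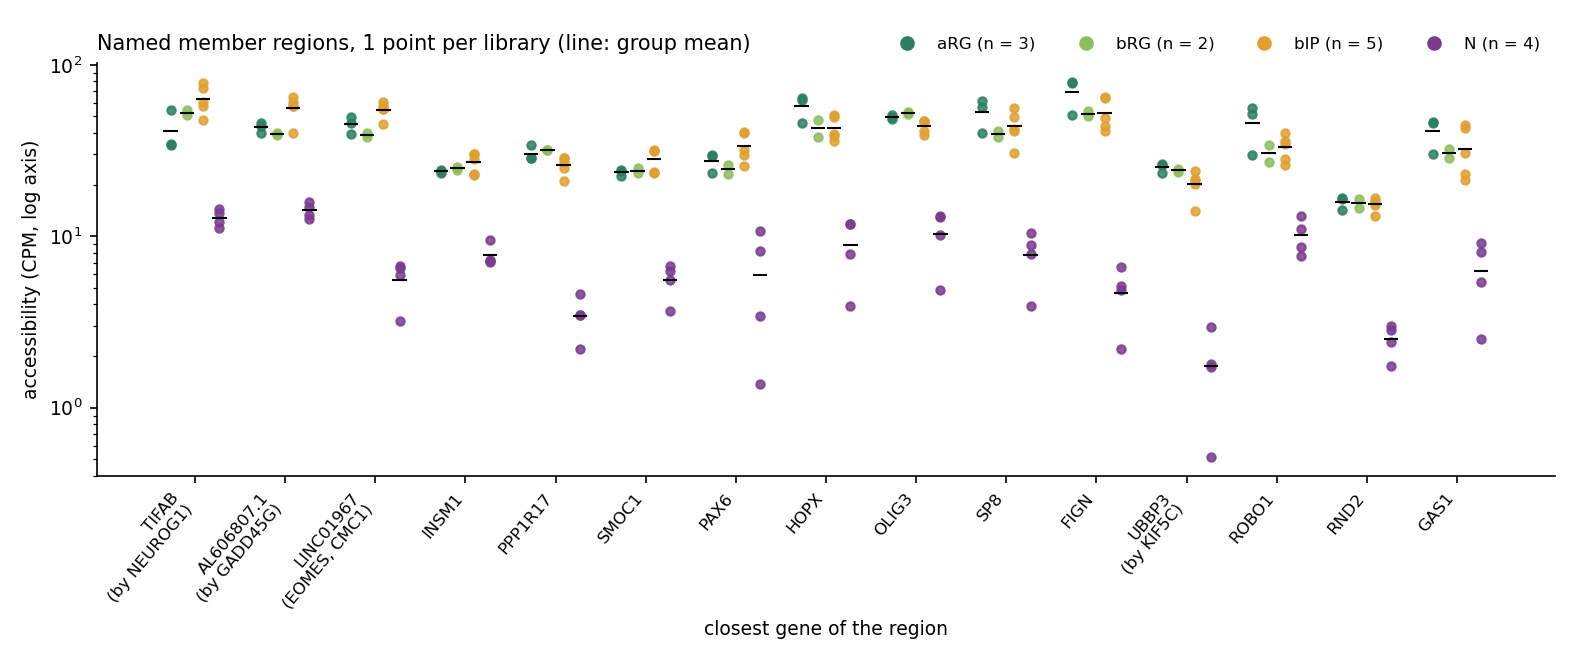
Accessibility (y axis, CPM on a log axis) of 15 named member regions, labelled by closest gene and, for 4 of them, a flanking coding gene in brackets, with 1 point per library, colours for the groups and a line at each group mean. The neuron libraries lie below all progenitor libraries at each of them, and the ratio of bIP to N is largest at the UBBP3 (11.5), FIGN (11.2) and LINC01967 (9.80) regions.

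Members at genes of radial glia were fewer. Of 98 distal regions at shared radial glia genes 4 were members (4.08%), 3 at PAX6 and 1 at HOPX, and of 55 at apical radial glia genes none was. The basal radial glia list had 1 of 99 (1.01%, against 1.10% of all distal regions), again at HOPX. By the nearest coding promoter the apical list had 2 of 158 (1.27%) and the basal list 1 of 237 (0.422%), against 1.12%. PAX6 is the homeobox factor that defines dorsal radial glia. In aRG the region measured 29.9, 29.3 and 23.5 CPM and in bRG 26.2 and 23.1. In bIP it measured 40.5, 39.9, 32.0, 25.5 and 29.9 CPM and in N 8.22, 10.7, 3.43 and 1.37. The region lies 56569 bp from the gene at chr11:21209495-21210278. Its N libraries spread widely, from 1.37 to 10.7 CPM, with both libraries of the second series at the low end. A second PAX6 member starts just beyond its end (chr11:21210595-21211603), at 24.5 CPM in bIP and 5.12 in N. HOPX is a homeodomain protein used as a marker of basal radial glia. The radial glia libraries gave the region 62.7, 63.9 and 45.5 CPM (aRG) and 47.8 and 37.9 CPM (bRG). The 5 bIP values were 51.0, 49.6, 36.1, 39.3 and 38.3 CPM, and the 4 N values were 11.9, 11.8, 7.92 and 3.94. The HOPX member (chr4:61532558-61534125) did not pass the test between bRG and aRG (log2 -0.22 ± 0.28, adjusted p = 0.987).

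Transcription factors that pattern the cortex had 7 members among 188 distal regions (3.72%), at PAX6, EMX1, MEIS2, SOX6 and TFAP2C. The GABAergic list had 3 of 71 (4.23%), among them 1 at SP8 and 1 at GAD2. By the nearest coding promoter these lists had 19 of 827 (2.30%) and 3 of 255 (1.18%), so the GABAergic share was then near the 1.12% of all such regions. SP8 is a zinc finger factor of cortical patterning and of interneuron precursors. Accessibility of the region was 57.1, 61.4 and 40.3 CPM in the 3 aRG libraries and 37.9 and 41.0 in the 2 bRG libraries. It was 55.8, 49.5, 41.0, 42.1 and 30.7 CPM in the 5 bIP and 10.4, 7.84, 8.87 and 3.94 in the 4 N libraries. The region lies 6197 bp from the gene at chr7:21462695-21463907, and all N libraries were below all others. The member at GAD2, an enzyme of GABA synthesis, stood at 5.43 ± 1.48 CPM in bIP and 1.49 ± 0.557 in N. TFAP2C is a transcription factor of cortical progenitors, and its member at chr20:53897522-53898213 stood at 8.27 ± 2.31 CPM in bIP and 2.05 ± 1.02 in N.

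Genes of excitatory neurons had a share of members near that of all distal regions, 2 of 242 (0.826%), at FEZF2 and CUX1. FEZF2 specifies deep-layer projection neurons. Its member (chr3:62301452-62302793) stood at 17.0 ± 4.73 CPM in bIP and 5.09 ± 2.05 in N, and at 23.4 ± 0.810 in bRG. Among the lists of other cell types, choroid plexus and cortical hem had no member among 67 regions. Mesenchyme had 1 of 39 (2.56%, at FOXC1) and oligodendrocytes and astrocytes 1 of 40 (2.50%, at GFAP), against 1.10% of all distal regions. By the nearest coding promoter these 3 lists had 3 of 149 (2.01%), 2 of 146 (1.37%) and 4 of 130 (3.08%), against 1.12%. Cell cycle genes (49 regions) and the Notch pathway (56 regions) had none by closest gene.

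Lists of signalling genes had shares of members not far from the 1.10% of all distal regions. The FGF, hedgehog and Hippo list had 3 members of 149 (2.01%), at GAS1, SPRY1 and ETV1, and the WNT list 2 of 145 (1.38%), both at the receptor gene FZD1. By the nearest coding promoter they had 7 of 471 (1.49%) and 5 of 465 (1.08%). GAS1 encodes a hedgehog co-receptor. At this region the aRG libraries gave 46.7, 45.9 and 30.1 CPM and the bRG libraries 32.4 and 28.5. The bIP libraries gave 44.3, 43.0, 30.6, 23.2 and 21.2 CPM and the N libraries 9.13, 8.05, 5.44 and 2.53. The region (chr9:58016550-58018127) was more open in the first series than in the second in every group that both series hold. SPRY1 is an inhibitor of FGF signalling, and its member went from 7.35 ± 1.73 CPM in bIP to 1.04 ± 0.557 in N, a ratio of 7.04. The FZD1 member at chr7:80793614-80794699 went from 26.2 ± 3.50 to 7.29 ± 1.37 CPM.

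Genes of cell shape and adhesion had 5 members of 185 regions (2.70%), at CDC42EP4, EPHA3 and RND2, and genes of axon growth and synapse 5 of 165 (3.03%), at ROBO1 and NRXN3. By the nearest coding promoter the shares were 16 of 612 (2.61%) and 11 of 460 (2.39%). RND2 acts in the migration of new neurons. In aRG the region measured 16.4, 16.7 and 14.1 CPM and in bRG 14.7 and 16.6. In bIP it measured 15.1, 15.8, 13.1, 16.8 and 16.0 CPM and in N 3.02, 2.43, 2.84 and 1.76. The region (chr5:38928132-38929130) was level across the 10 progenitor libraries and lower in all 4 of N. ROBO1 is a receptor for Slit guidance cues and had 4 members, between 39092 bp and about 150300 bp from the gene. The most open lies at chr3:78895951-78897334. The radial glia libraries gave the region 55.8, 51.6 and 29.8 CPM (aRG) and 34.1 and 27.1 CPM (bRG). The 5 bIP values were 40.3, 36.0, 34.7, 28.3 and 26.0 CPM, and the 4 N values were 13.1, 11.0, 8.69 and 7.67. The other 3 ROBO1 members stood at 5.95, 8.29 and 22.8 CPM in bIP and at 1.95, 1.87 and 3.71 in N. EPHA3 is an ephrin receptor, and its most open member went from 21.3 ± 3.00 CPM in bIP to 3.87 ± 1.75 in N.

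The largest losses among members with at least 10 CPM in bIP included regions far from any coding promoter. The region with the highest ratio (chr5:72198779-72199731, closest gene AC114316.1) lies over 1 Mb from both flanking coding promoters, those of ARRDC3 and NR2F1. Accessibility of the region was 14.5, 14.4 and 12.7 CPM in the 3 aRG libraries and 13.7 and 12.5 in the 2 bRG libraries. It was 19.4, 16.2, 17.9, 17.8 and 16.1 CPM in the 5 bIP and 1.20, 0.971, 2.07 and 0.471 in the 4 N libraries. Its ratio of bIP to N was 14.8. Next in rank were the regions at AL512360.1 (14.5), AC026464.4 (13.2), KCNMB2 (12.7), FOXE1 (12.4), UBBP3 and AC104361.1 (both 11.5) and FIGN (11.2). The UBBP3 region (chr2B:35576339-35577470) lies 9915 bp from the promoter of KIF5C, a kinesin of axonal transport. At this region the aRG libraries gave 25.9, 26.3 and 23.4 CPM and the bRG libraries 24.7 and 23.7. The bIP libraries gave 20.1, 21.6, 14.1, 24.0 and 21.1 CPM and the N libraries 1.73, 1.80, 2.96 and 0.514. The FIGN region (chr2B:50293232-50295982) lies 140189 bp from the gene, which encodes a microtubule-severing enzyme. In aRG the region measured 79.9, 77.8 and 50.8 CPM and in bRG 53.4 and 50.0. In bIP it measured 64.6, 63.9, 48.8, 41.1 and 44.1 CPM and in N 6.61, 5.13, 4.85 and 2.19. Here aRG 3 stood with the bRG libraries of its own series and apart from aRG 1 and 2.

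Most genes had a single member. The members named 1663 closest genes, of which 1458 had 1 member and 41 had 3 or more. Y_RNA with 25 and U3 with 6 lead the count, but each name stands for many copies over the genome. Of single loci, AC093418.1 and PBX3 had 5 members each, and ILF2P1, OLIG3, ROBO1, CYP51A1P3, LRIG1 and CLDN10 were among those with 4. PBX3 encodes a homeobox cofactor, and its members stood between 2.11 and 12.9 CPM in bIP and between 0.592 and 3.32 in N. OLIG3 is a transcription factor of dorsal progenitors, and its most open member lies at chr6:135875583-135877497. The radial glia libraries gave the region 48.3, 49.4 and 50.8 CPM (aRG) and 51.9 and 52.7 CPM (bRG). The 5 bIP values were 46.9, 46.6, 38.7, 46.9 and 41.3 CPM, and the 4 N values were 13.0, 13.1, 10.2 and 4.89. Counted by the nearest coding promoter, a count added after seeing the data, SASH1 had 7 of its 50 distal regions among the members, MAPKAP1 6 of 42 and KIF5C 5 of 18. INSM1 had 4 of 53 and GADD45G 3 of 39.

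The rule's limits run through a continuous range of values. Just inside the ratio of 3 lay TRAPPC2P2, with 2.04 CPM in bIP and 0.679 in N, TEX29, with 5.81 and 1.93, and AC073873.1, with 22.6 and 7.52. Just outside lay KDM4B, with 2.58 and 0.861, AL589923.1, with 9.93 and 3.31, and LINC00348, with 4.22 and 1.41. Requiring a ratio of 2 instead of 3 gave 5113 members and a ratio of 4 gave 909. Without N 3 the rule gave 2558 members and without N 4 it gave 1566.

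Basal and apical radial glia were compared at the members, because the rule pooled them and did not use their difference. None of the 1947 members passed the threshold of 0.05 on the adjusted p, nor did any region of the whole table (0.0% of 200931, with 8197 at an unadjusted p under 0.05). The median log2 difference of bRG from aRG was -0.06, and 25 members had an unadjusted p under 0.05. The smallest adjusted p among the members was 0.987 with edgeR, and DESeq2 also called 0 members. Fitted on aRG and bRG alone, 2 members passed, with no share over all regions of that fit beside it. For 1385 members (71.1%) the 95% interval stayed inside a 2-fold change. At the others it reached past 2-fold. In simulated counts the fit recovered 50% of 2-fold and 96% of 4-fold changes between bRG and aRG.

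At the members with the smallest p in this comparison, aRG 3 stood apart from the other aRG libraries. The region at AL161663.2 (chr14:20441271-20442492) stood at 24.7, 25.4 and 12.1 CPM in aRG and at 12.0 and 11.8 in bRG, so aRG 3, the only aRG library of the second series, was level with bRG. Its log2 difference was -0.90 ± 0.32 (adjusted p = 0.987). The region at AC012445.1 stood at 7.50, 6.88 and 2.63 CPM in aRG and 2.44 and 2.56 in bRG, with the same split. The series term of the edgeR fit did not pass at either region (log2 -0.04 and 0.08, adjusted p = 0.91 and 0.89). That term is shared by all groups, so it does not test a difference between series within aRG alone.

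The 2 series allow a check in libraries that a choice did not use. The rule applied to the first series alone chose 2088 regions. In the second series, 1861 of these (89.1%) were lower in N than in bIP past the threshold and 1 was higher, while 20.9% of all regions were lower. Their median log2 difference was -1.98. The rule applied to the second series alone chose 2296 regions, of which 2210 (96.3%) were lower in N in the first series and 3 were higher, while 26.0% of all regions were lower, and the median log2 difference was -1.69. Both comparisons used edgeR on the 7 libraries of 1 series. The chosen regions had at least 2 CPM in bIP in the series that chose them, which was not asked of all regions. The shares are thus not for regions of like level.

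The size of the loss and the evenness of the progenitors returned less fully than the direction. Of the regions chosen in the first series 54.8% reached the ratio of 3 in the second, with a median ratio of 3.22 against 3.82 in the libraries that chose them. Of those chosen in the second, 57.4% reached it in the first, with 3.26 against 4.04. The window of 0.67 to 1.5 between bIP and radial glia was met again by 67.9% and 68.2%. The radial glia mean was that of aRG 1 and 2 in the first series and of aRG 3 and bRG 1 and 2 in the second. For this window, library series and type of radial glia thus cannot be told apart. Regions chosen in the first series that left the window in the second mostly fell below it (541 below, 130 above), and those chosen in the second mostly rose above it in the first (431 above, 300 below). The choices in the 2 series shared 862 regions, which is 41.3% of the first and 37.5% of the second. Of the 1947 members, 1287 met the whole rule in the first series, 1349 in the second and 165 in neither.

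**Figure D3:**
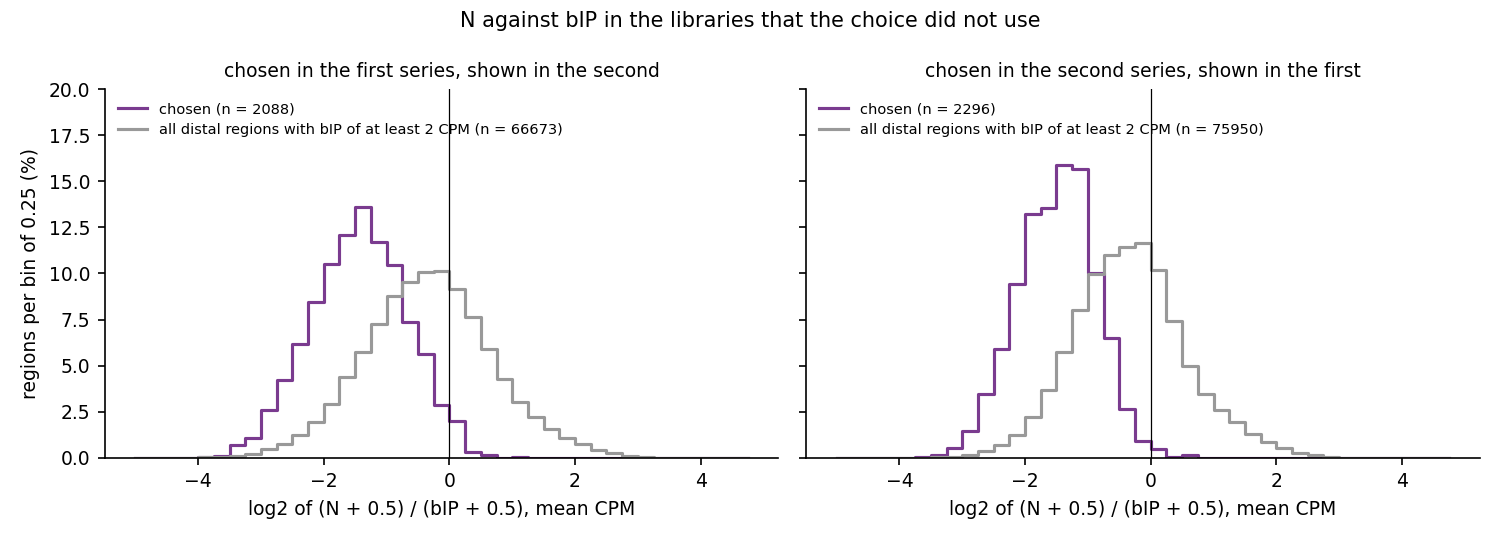
Distribution of the log2 ratio of N to bIP (x axis, mean CPM plus 0.5) in the libraries that a choice did not use, as the percent of regions per bin of 0.25 (y axis). Regions chosen in the first series (n = 2088) and in the second (n = 2296) have medians of -1.42 and -1.47 in the other series, and all distal regions with at least 2 CPM in bIP have medians of -0.33 and -0.35.

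Levels also differed between the series. With group means held apart, 266 members (13.7%) were higher and 200 (10.3%) lower in the second series, against 9.35% and 6.49% of all regions. Without bIP 4 the members in either direction numbered 296 instead of 466, with no share over all regions of that fit beside it. Within bIP, 370 members (19.0%) were higher and 115 (5.91%) lower in the second series, against 8.47% and 5.47% of all regions. Within N the balance was the other way, with 61 members (3.13%) higher and 219 (11.2%) lower, against 8.95% and 6.5%. This pattern is not particular to the members: of the 2969 regions open mainly in bIP, 26.0% were higher in bIP and 19.3% lower in N in the second series. Of the constitutively open regions, 10.2% were higher and 2.76% lower in bIP, and 6.95% higher and 4.86% lower in N. The members had at least 2 CPM in bIP, which was not asked of all regions. The shares of members and of all regions are thus not for regions of like level. The series follow library numbers only, and the sources used here do not say what else differed between them.

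The loss from bIP to N was larger in the second series at more members than at all regions. The difference between series was tested as an interaction: 209 members (10.7%) had a more negative N to bIP change in the second series, against 4.32% of all regions, and 7 (0.360%) a less negative one, against 4.01%. In either direction 8.33% of all regions differed. Of the regions open mainly in bIP 22.4% had a more negative change. Of the constitutively open ones 2.75% had a more negative and 1.22% a less negative change. The minimum of 2 CPM in bIP was asked of the members and not of all regions, so their levels are not alike here either. The median of this difference was -0.37 log2 at the members and 0.12 over all regions. It was 0.55 at the 7909 distal regions that radial glia lose by bIP, -0.70 at the 2969 open mainly in bIP, -0.08 at the 11248 constitutively open ones and -0.44 at promoters. The count of 209 rests in part on single libraries. It was 70 without N 2, 96 without bIP 5, 137 without bIP 3 and 543 without N 3, and the count of 7 was 46 without N 4. No share over all regions in the same fits stands beside these counts. A shift of the members thus cannot be told apart here from a shift of the whole table.

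PAX6 was among the regions with a larger loss in the second series. Its region fell from bIP to N by a ratio of 3.97 in the first series and 11.6 in the second, an interaction of -1.86 ± 0.35 log2 (adjusted p = 0.0012). The TFAP2C region went from a ratio of 2.47 to 7.72 (-1.99 ± 0.39, adjusted p = 0.0018). The regions at HOPX, LINC01967, OLIG3, PPP1R17 and BARHL1 passed in the same direction, with interactions between -1.02 and -1.14. ETV1, a transcription factor downstream of FGF, went the other way. Accessibility of the region was 8.85, 7.22 and 3.05 CPM in the 3 aRG libraries and 4.72 and 2.27 in the 2 bRG libraries. It was 9.74, 9.95, 8.49, 3.42 and 2.91 CPM in the 5 bIP and 1.90, 1.53, 1.95 and 2.10 in the 4 N libraries. The ETV1 region (chr7:14632592-14633020) stood high in aRG 1 and 2 and bIP 1 to 3, and its ratio was 5.48 in the first series and 1.56 in the second (1.58 ± 0.43, adjusted p = 0.018).

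**Figure D4:**
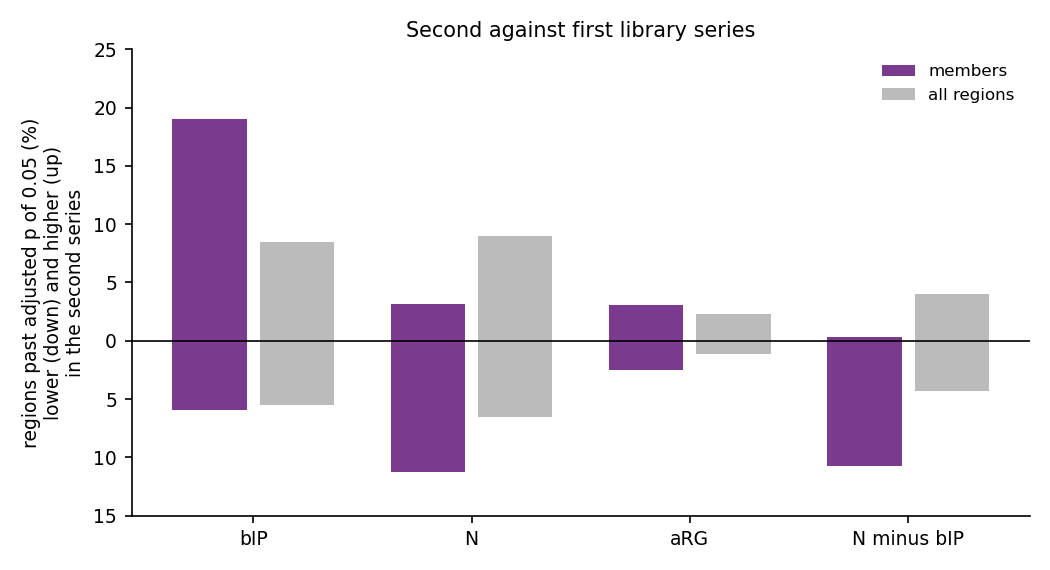
Percent of regions (y axis) past an adjusted p of 0.05 between the second and first library series, with bars up for higher and down for lower in the second, for bIP, N, aRG and the N minus bIP change. Members (purple) were more often higher in bIP (19.0%) and lower in N (11.2%) than all regions (grey, 8.47% and 6.5%), as were regions open mainly in bIP, which are not drawn (26.0% and 19.3%). All regions were not held to the members' minimum of 2 CPM in bIP, so the levels are not alike.

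Promoters of the closest genes were more often lower in N than promoters at large, though 314 of 719 passed in neither direction. Promoter regions lie within 1000 bp of a gene and could not be members, though they share the libraries of the rule. Of the 1663 closest genes, 723 had a promoter region in the table on the same chromosome within 250000 bp of a member, and 719 were tested. Of these, 323 (44.9%) were lower in N and 82 (11.4%) higher, compared with bIP. The shares over all promoters were 22.3% and 13.7%. For protein-coding names the counts were 129 (40.6%) lower and 16 (5.03%) higher of 318, against 18.9% and 7.76%. The shares lower among coding promoters at the closest genes of the other classes were 27.0% for regions that radial glia lose by bIP, 28.7% for regions open mainly in bIP and 24.8% for constitutively open regions. The median log2 difference of the 719 was -0.39, against -0.13 for all promoters and -2.09 for the member regions.

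Among the 27 listed genes with a member, 25 had a tested promoter, and 21 of these (84.0%) were lower in N and none higher. Of 201 listed genes with a tested promoter and no member, 96 (47.8%) were lower and 13 higher. The promoter of NEUROG1 stood at 37.9 ± 6.60 CPM in bIP and 16.6 ± 3.01 CPM in N (log2 -1.35 ± 0.16, adjusted p = 1e-07). That of TFAP2C stood at 18.8 ± 3.19 CPM in bIP and 7.03 ± 1.94 CPM in N and that of GFAP, an intermediate filament of astrocytes and radial glia, at 21.9 ± 4.42 CPM in bIP and 7.82 ± 3.21 CPM in N. Both were lower in N, with log2 differences of -1.57 and -1.63. Of named genes outside the lists, the promoters of OLIG3 (-1.30), BARHL1 (-1.45), CLDN10 (-1.13) and FIGN (-0.98) were lower in N too.

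Some promoters did not pass the test or went the other way. The 4 listed genes that did not pass were HOPX (14.5 ± 3.03 CPM in bIP and 15.6 ± 2.88 CPM in N), SMOC1 (19.8 ± 4.77 CPM in bIP and 24.4 ± 2.30 CPM in N), INSM1 and RND2, the last pair with log2 differences of -0.42 ± 0.19 and -0.36 ± 0.16. The KIF5C promoter, 9915 bp from a member with a ratio of 11.5, stood at 29.7 ± 3.36 CPM in bIP and 28.0 ± 4.47 CPM in N (log2 -0.17 ± 0.17, adjusted p = 0.41). The promoter of KCNMB2, a potassium channel subunit, stood at 12.4 ± 1.83 CPM in bIP and 13.3 ± 3.51 CPM in N (adjusted p = 0.97). The promoter of FOXE1, a forkhead factor, was higher in N (5.80 ± 0.609 CPM in bIP and 9.37 ± 1.01 CPM in N, log2 0.59 ± 0.16, adjusted p = 0.0036), while the member 20177 bp away at chr9:68874118-68876226 stood at 52.0, 54.0, 36.5, 51.2 and 48.5 CPM in bIP and 3.92, 6.17, 4.55 and 1.03 in N.

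The promoters with the smallest p were mostly those of noncoding genes and pseudogenes. The lowest p among those that fell were at LINC02233, from 17.6 to 1.72 CPM, MTCYBP37, from 10.1 to 1.12, AC026408.1, from 23.4 to 5.17, MIR4275, from 8.19 to 0.809, AC119674.1, from 15.2 to 2.65, and AL445645.1, from 46.6 to 11.5. The other 5 were more open in bIP than in radial glia, but AL445645.1 stood at 48.9 CPM in aRG and 44.5 in bRG, the same course as the members. Those that rose with the lowest p were CCDC105, from 1.32 to 9.19 CPM, RNA5SP322, from 0.808 to 7.13, MIR151A, from 1.38 to 10.4, NPM1P48, from 2.85 to 17.1, AC115285.1, from 0.869 to 6.40, and AC007790.1, from 0.699 to 4.98.

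Other distal regions close to a member were also more often lower in N. Of 1688 distal regions that are not members and lie within 5 kb of one, 60.0% were lower in N, and among all distal regions 26.8% were. The share fell with distance, to 47.3% at 5 to 10 kb, 37.9% at 20 to 50 kb, 29.9% at 100 to 200 kb and 22.5% beyond 200 kb. Their median log2 difference ran from -0.86 within 5 kb to 0.14 beyond 200 kb. Around constitutively open regions 35.3% were lower within 5 kb, and around regions that radial glia lose by bIP 28.2%. Neither class was chosen for a lower level in N than in bIP. Regions open mainly in bIP, which were, are not among these counts. N against bIP is the contrast that chose the members, and neighbouring regions can be parts of 1 open stretch, so the shares are a description. The members themselves were spread out, with a median gap of 656 kb to the next and the next member within 10 kb at 108 of them.

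**Figure D5:**
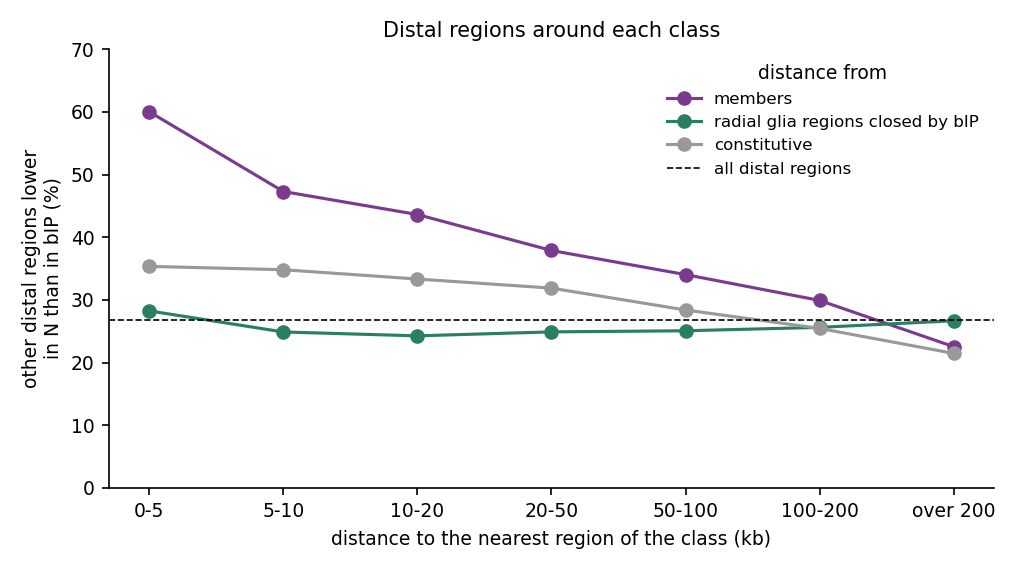
Percent of other distal regions that were lower in N than in bIP (y axis) by their distance to the nearest region of a class (x axis, kb), for members, constitutively open regions and regions that radial glia lose by bIP, with a dashed line for all distal regions. The share around members falls from 60.0% within 5 kb to 22.5% beyond 200 kb.

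The consensus peak sets, 1 per cell type, were set beside the members over the 1763 that lie off chromosomes 2A and 2B, since the peak sets hold no peak on those. An N peak touched 20.6% of members, while 84.1% were touched in bIP, 88.0% in bRG and 87.9% in aRG. Peaks of all 3 progenitor types and none of N touched 950 members (53.9%), against 5.09% of all distal regions, and peaks of all 4 types touched 359. The 363 members with an N peak had a median of 5.03 CPM in N and 19.8 in bIP, against 1.42 and 6.12 for the rest. The peak sets describe the same sorted cell types and were taken as no independent measurement.

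The members were as long as constitutively open regions but lay farther from genes, at about the distance of distal regions at large. Their median length was 1055 bp, against 826 bp for all distal regions and 1056.5 bp for constitutively open ones. Their median distance to the closest gene was 25010 bp, against 24234 bp for all distal regions and 15573 bp for constitutively open ones. A chimpanzee (panTro6) position was listed for all but 20 members (1.03%), against 1.18% without one among all distal regions. The human (hg38) counterpart was within 5% of the gorilla length at 98.9% of members and at 97.7% of all distal regions. By chromosome the share of distal regions that were members ran from 0.690% on chromosome 21 to 1.86% on chromosome 20, leaving out X, which has 6 distal regions and no member. Whether a region lies in an exon or an intron was not analysed here.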

How the data were processed

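The authors deposited raw whole-number counts for 14 libraries, with region names in gorGor6 (per the file headers). The tools bcl2fastq 2.20.0 and MACS2 and the builds hg38 and panTro6 are named, without a role, per the submitters' processing notes. Not given in the sources used here are the aligner, the read counter and any offset of reads for the transposase. Consensus peak sets, 1 per cell type, were deposited in narrowPeak layout with a score, a fold enrichment (ratio), a −log10 p-value and a −log10 q-value per the file headers. Only the −log10 q was used, to pick the upper part of each set. The peak sets state no build and were read as gorGor6.

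Of 218080 regions, 13823 without a gorilla position and 8 repeats were left out. CPM was computed from the counts with no further scaling. The tests used edgeR 4.0.16 under R 4.3.3 (TMM scaling with factors of 0.875 to 1.23, filterByExpr, quasi-likelihood test). The model had a mean per group and a series term over all 14 libraries. The Benjamini-Hochberg adjustment covered all 200931 tested regions, at a threshold of 0.05, and all members passed the filter. Log2 differences carry standard errors from this fit. The interaction came from a fit with 1 mean per group and series. DESeq2 1.42.0, other filters, each library left out and other member rules were alternatives. Each test was checked on simulated counts of 20000 regions, where the interaction recovered 11% of 2-fold and 70% of 4-fold changes, and the series term 94% and 100%. The floor of 3 counts covers counting error only.

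The members and gene lists were chosen with earlier results of these data known. Named regions were the 8 most open, the 8 with the largest ratio at 10 CPM or more, up to 3 genes per list, the 8 genes with the most members, the 3 nearest the ratio limit on each side, and those with the smallest p for bRG against aRG and for the interaction. Named promoters were those of these genes, of the markers and the 6 that fell and 6 that rose with the smallest p. Counts by nearest coding promoter, the limit of 250000 bp for promoters and the protein-coding names were chosen after seeing the data. Names were called protein-coding by RefSeq's table for the assembly NHGRI_mGorGor1-v2.1_pri, a different build, used for names alone. The listed gene distance was taken as given, and the file does not say from which point it runs. The closest library pairs, bIP 1 and 2 and aRG 1 and 2, differed by chi-squares of 1.07 and 1.10 per degree of freedom over 102017 regions. These are near the 1 of counting error alone, and other pairs within a group reached 15.4. Whether the closest pairs are technical repeats was not tested. If they are, the p-values treat too many libraries as separate. Every library was kept as 1 sample, with the closest pairs summed as an alternative. Motifs and sequences were not analysed here, and the values at 1 of the listed genes are not reported here.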

Additional observations from a re-analysis of the deposited data

Results flagged for a closer look

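In 10 of 296 groups of 4 or 5 libraries tested (3.38%), 1 library stood apart from the others by Dixon's limit, which chance passes in about 1 of 20 groups. Among the regions, bIP 3 was low at the ILF2P1 region, at 40.4 CPM, and at the U3 region that starts at 134777775 on chromosome 1, at 35.1 CPM. N 3 was high at the INSM1 region, at 9.46 CPM, and at the AL589923.1 region just outside the rule, at 4.67 CPM. Among the promoters, bIP 3 was high at AC114316.1, at 4.67 CPM, and at KCNMB2, at 15.7 CPM, and low at GADD45G, at 68.2 CPM. bIP 5 was high at STMN2, at 50.3 CPM, and low at SP8, at 19.5 CPM. N 3 was high at SOX2, at 14.3 CPM. Of these 10 flags, 5 were at bIP 3 and 3 at N 3.

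The change from bIP to N was more negative in the second library series at 209 members (10.7%, against 4.32% of all regions). This came from edgeR's quasi-likelihood test of the interaction, adjusted over all regions. Named regions with a more negative change in the second series were LINC01967 (-1.02 log2), HOPX (-1.06), PAX6 (-1.86), PPP1R17 (-1.03), TFAP2C (-1.99), OLIG3 (-1.09), BARHL1 (-1.14), AC073873.1 (-1.10), RNU6-256P (-2.63), MT4 (-1.95), AC078850.2 (-1.85) and AFAP1L1 (-2.45). RNU6-256P, MT4, AC078850.2 and AFAP1L1 were named for the smallest p in this test. The ETV1 region had a less negative change, by 1.58 log2. The promoters of ILF2P1 (-1.57), THBS1 (-0.94) and GFAP (-1.39) also had a more negative change in the second series. What sets the series apart was not tested.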

How the results depend on the processing

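The number of members moved most with the limits of the rule: 5113 at a ratio of 2, 909 at a ratio of 4 and 1083 with the narrower window between bIP and radial glia. Scaling by TMM gave 2430, medians in place of means 2137 and a minimum of 5 CPM 1333. The labels give groups the same replicate numbers, but over 16 same-numbered pairs the correlation of deviations ran from -0.281 to 0.474 and 8 were over 0.1, so the numbers were not taken to pair the libraries. With a replicate block, 8 members passed between bRG and aRG and 4 between the series, where the block also takes up part of the series term. With aRG and bRG alone, 2 members passed between bRG and aRG. Between the series, 240 members instead of 466 passed with the closest pairs summed, and 296 to 537 when 1 library was left out. The interaction gave 70 to 543 members with a more negative change when 1 library was left out. Those with a less negative change numbered 3 with DESeq2 size factors, 2 with DESeq2, 1 with closest pairs summed and 1 to 46 when 1 library was left out. No share over all regions of the same fits stands beside these counts of members. The causes were not tested. Using the peaks above the median -log10 q, 77.2, 77.3, 75.8 and 9.59% of members were touched in aRG, bRG, bIP and N, and with peaks over the greater part of the region 83.8, 85.3, 81.7 and 15.9%. Over all distal regions the shares were 23.3, 23.6, 24.3 and 25.3%, and 28.9, 28.2, 29.6 and 29.9%. Of the values for 85 named promoters, 1860 kept their side of the threshold, 77 (at 25 promoters) no longer passed and 18 newly passed. The direction of a promoter was compared only where the main or the alternative fit passed. For 58 named regions, 1043 values stayed within the spread between replicates and 1 moved. None of the alternatives that were run reversed the direction of a named region, or of a named promoter that passed in either fit. In simulated counts the interaction recovered 11% of 2-fold changes, so members it does not call may still differ by that much.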

Other observations

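The nearest coding promoter pointed to genes that the closest listed gene did not. By that count the shared radial glia list had 11 members of 519 distal regions (2.12%, against 1.12% of all distal regions with a coding promoter within 200 kb), at PAX6, DMRTA2, SOX2, HOPX, LHX2, PTN and SOX9. The excitatory neuron list had 10 of 581 (1.72%), at CUX1, FEZF2, MAP2, SOX5 and TBR1. The choroid plexus and cortical hem list had 3 of 149 (2.01%), at OTX2 and LMX1B, and the Notch list 3 of 179 (1.68%), at HEY2 and JAG1. These are counts with no test, chosen after the values were seen. A coding promoter within 200 kb was lacking at 674 members.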
